A study of Rattus norvegicus with 24 samples.

Results

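The CCN matricellular proteins were followed through the zones of the rat tibial growth plate with the probe sets that the platform annotation assigns to Ccn1 (older symbol Cyr61), Ccn2 (Ctgf), Ccn3 (Nov), Ccn4 (Wisp1) and Ccn5 (Wisp2). Each of the 5 genes had 1 probe set, so the members were 5 of the 31042 probe sets left after controls were removed. Of these 5, 4 were among the 19213 probe sets bright enough to be tested, and Ccn5 was not. Cartilage was cut by hand from frozen sections of the proximal tibia of 1-week-old, non-castrated rats, and each of 24 arrays held RNA of 1 zone of 1 numbered animal. The groups were epiphyseal cartilage (animals 1, 2, 4 and 5), the resting zone, the proliferative zone, the transition zone between proliferative and hypertrophic cartilage, and the hypertrophic zone (5 animals each). The labels give no strain. For the resting, proliferative and hypertrophic arrays they name male rats. For epiphyseal cartilage and the transition zone their wording differs, with no sex, no treatment and a standard chow. Whether those arrays were prepared apart from the rest is not stated, so in every comparison of epiphyseal or transition cartilage with the resting, proliferative or hypertrophic zone the wording and any such difference cannot be told apart from the zone.

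CCN proteins are secreted, cysteine-rich proteins of the extracellular matrix built from modules that resemble parts of insulin-like growth factor binding proteins, von Willebrand factor and thrombospondin. They act mostly by binding integrins, heparan sulfate proteoglycans, lipoprotein receptor-related proteins and growth factors, and so change how cells read their matrix. Ccn1 and Ccn2 are induced within a short time by serum, TGF-beta and mechanical load, in large part through the Hippo pathway effectors YAP and TAZ with TEAD transcription factors. In growth plate cartilage Ccn2 is a growth factor of chondrocytes, and mice without it have malformed cartilage and bone. Ccn3 restrains proliferation in many cell types, Ccn4 was found as a Wnt-induced gene and is known from bone-forming cells, and Ccn5 lacks the C-terminal module of the others.

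Signals are MAS5 intensities on a linear scale, in which the brightness of 1 probe set cannot be set against that of another. The array median signal lay between 135.3 and 244.6. Probe sets were tested if they exceeded their own array's median on at least 4 arrays. Differences are log2 differences of signal + 16 from a limma fit with the animal as a block, with their standard errors, and understate the change of dim probe sets. A difference passed at an adjusted p below 0.05 and was called when it also reached a fold of 2. In bulk tissue, fewer cells of a type and less RNA per cell cannot be told apart, and precision is limited by how few arrays each zone has.

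Markers of cartilage were present in every zone, and no list marked the epiphyseal, resting or proliferative label by itself. Summed signals of the 7 cartilage markers on the array lay between 184400 and 515100 over all arrays, with no marker below the array median throughout a zone. Summed signals of the 6 markers of hypertrophic chondrocytes were 23190 to 31690 in epiphyseal cartilage, 9123 to 11090 in the resting zone, 12870 to 26140 in the proliferative zone, 76160 to 132600 in the transition zone and 95590 to 209800 in the hypertrophic zone, so that epiphyseal cartilage lay above the resting zone in them. Markers of other cells moved with the hypertrophic zone too: against the proliferative zone, all 3 tested osteoblast markers, all 5 tested osteoclast and macrophage markers and all 4 tested erythroid markers rose, 5 of 9 perichondrium and fibroblast markers rose while 1 fell, 2 of 6 endothelial and vessel wall markers rose, and 2 of 6 skeletal muscle markers rose while 1 fell. Of all 10558 genes, 19.3% rose and 22.4% fell in that comparison at an adjusted p below 0.05. Among the osteoblast markers, Ibsp was already higher in the transition than in the proliferative zone, by 2.05 ± 0.39 (adjusted p = 0.0004374). Col1a1 and Dmp1 did not pass there (adjusted p of 0.5795 and 0.9093). Ibsp gave 36878.8 of the osteoblast sum of 41480 in the hypertrophic array of animal 2, and 33550.9 of 93710 in that of animal 4. Skeletal muscle markers had their highest median sum in the resting zone. They summed to 8025 to 26490 in the hypertrophic zone and 5409 to 15540 in the proliferative zone, against 41460, 10550, 85500, 12010 and 54820 in the resting zone of animals 1 to 5. Against the resting zone, 4 of 6 of them fell in the proliferative zone, beside 7.44% of all genes. In the hypertrophic zone 2 of 6 fell against the resting zone, beside 22.5% of all genes. Osteoclast and macrophage markers summed to 58610 and 29230 in epiphyseal cartilage of animals 1 and 2, against 2981 and 2449 in that of animals 4 and 5. The hypertrophic array of animal 4 stood apart in the osteoblast, osteoclast and macrophage, and perichondrium and fibroblast lists. In the erythroid and skeletal muscle lists it lay within the range of the other hypertrophic arrays. The epiphyseal arrays of animals 1 and 2 and the transition array of animal 5, which agreed best with another animal, were also treated with caution. Results were refitted without these doubted arrays. RNA quality was read from the actin control probe sets, whose 3' over 5' signal averaged 4.308 ± 0.3031 (log2, SD, n = 5) in the hypertrophic zone and 4.47 ± 0.3071 in the proliferative zone, and from the Gapdh control probe sets, for which it averaged 2.956 ± 0.5363 and 2.674 ± 0.3367. Between these zones the ratios differed in opposite directions and by less than 1 SD. The resting zone averaged 4.027 ± 0.2538 for actin and 2.758 ± 0.3977 for Gapdh, both below the hypertrophic zone. Its actin mean was below the hypertrophic and proliferative means by more than its own SD. Epiphyseal and transition cartilage averaged 4.03 and 4.46 for actin and 2.909 and 2.573 for Gapdh. The part of RNA quality in the zone differences was not tested.

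Promoters are shown for the members with a matched sequence, Ccn1 and Ccn2, which are also known as YAP and TAZ targets. RefSeq promoter sequences of assembly GRCr8 were matched for 2 of the 5 members, and the 250 bases before each gene's start are printed 5′ to 3′ on the gene's strand, with the TEAD motif GGAATG, or CATTCC where it lies on the opposite strand, in capitals. The Ccn1 window is chr2:237225690-237225939 and the Ccn2 window chr1:22624615-22624864, both on the minus strand.
Ccn1: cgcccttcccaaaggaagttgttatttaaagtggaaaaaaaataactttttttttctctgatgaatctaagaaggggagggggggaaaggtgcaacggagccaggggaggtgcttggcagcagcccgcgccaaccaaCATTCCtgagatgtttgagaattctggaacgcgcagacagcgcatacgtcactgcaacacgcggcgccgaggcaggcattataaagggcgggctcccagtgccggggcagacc
Ccn2: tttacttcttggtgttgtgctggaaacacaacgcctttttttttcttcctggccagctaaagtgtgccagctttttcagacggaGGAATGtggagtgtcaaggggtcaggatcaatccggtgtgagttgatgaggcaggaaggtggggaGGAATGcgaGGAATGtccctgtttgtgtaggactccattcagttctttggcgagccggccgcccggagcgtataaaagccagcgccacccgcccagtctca

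The Ccn1 window held 1 GGAATG, on the opposite strand, 113 to 108 bases before the start. The Ccn2 window held 3, all on the gene's strand, 166 to 161, 101 to 96 and 92 to 87 bases before the start. Of 33469 RefSeq promoter windows of this length, 12.1% held the motif on either strand, and 0.0807% held it 3 or more times. Both windows also held the TATA box letters TATAAA, 34 to 29 bases before the start in Ccn1 and 31 to 26 in Ccn2, as did 12.9% of all windows, and the SP1 motif GGGCGG (30.5% of all windows). The SMAD motif CAGACA was in the Ccn1 window only, 80 to 75 bases before the start (17.2% of all windows), and the AP-1 motif TGAGTCA was in neither (4.05% of all windows). All motifs were searched on both strands, none of the matches overlapped another, and a match is a description of letters and not of binding.

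Ccn1, a ligand of integrins on many adherent cells, had its highest mean in the proliferative zone and its lowest in the hypertrophic zone. Its signals were 429.3, 842.4, 540.7 and 629 in epiphyseal cartilage of animals 1, 2, 4 and 5. In animals 1 to 5 they were 583.4, 1049.7, 893.2, 651.1 and 722.6 in the resting zone, 1471, 1827.7, 923.4, 792.6 and 762.3 in the proliferative zone, 679.1, 1119.9, 623.3, 689.7 and 550.4 in the transition zone and 563.9, 582.5, 371, 255.7 and 482.6 in the hypertrophic zone. Every hypertrophic array was below every proliferative array, and every hypertrophic array was also below every resting array, though by less than 1 signal unit at the nearest point. The zone means were 610.4 ± 175 (SD, n = 4) in epiphyseal cartilage, 780 ± 189.8 in resting cartilage, 1155 ± 472.1 in the proliferative, 732.5 ± 223.5 in the transition and 451.1 ± 137.5 in the hypertrophic zone (n = 5 each).

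Across the 5 zones Ccn1 passed limma's moderated F test (adjusted p = 0.0001078). In the hypertrophic zone it fell by 1.30 ± 0.20 on the log2 scale relative to the proliferative zone (adjusted p = 1.184e-05), a 2.45-fold difference that held its direction in 5 of 5 animals. Relative to the resting zone it fell by 0.80 ± 0.20 (adjusted p = 0.002145, 5 of 5 animals). Both differences passed in all 19 alternative settings and remained without the hypertrophic array of animal 4, at -1.17 (adjusted p = 5.422e-05) and -0.66 (adjusted p = 0.009851). In animals 2 and 4, whose resting arrays had the least muscle signal, the hypertrophic minus resting difference was -0.83 and -1.30 for Ccn1, and -0.51 and -0.18 for Ccn2. In animals 1, 3 and 5 it was -0.05, -1.23 and -0.57 for Ccn1, and -1.24, -1.03 and -0.93 for Ccn2. The Ccn2 fall was smallest in animals 2 and 4, whereas the Ccn1 fall was largest in animal 4 and smallest in animal 1. Without replicate 3, whose resting array had the most muscle signal, the differences of Ccn1 and Ccn2 were -0.69 (adjusted p = 0.02172) and -0.71 (adjusted p = 0.02109). The part of muscle in these differences was not tested.

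Ccn1 was lower in each of the later zones than in its neighbour before it. The transition zone was 0.60 ± 0.20 lower than the proliferative zone (adjusted p = 0.0312) and the hypertrophic zone 0.69 ± 0.20 lower than the transition zone (adjusted p = 0.01252), each in 5 of 5 animals. Both steps cross the 2 wordings of the labels. The first step did not pass in 8 of 19 settings. These were quantile normalization (-0.50, adjusted p = 0.0846), one common array median (-0.44, adjusted p = 0.1193), a fit with no replicate block (0.1226), a random block (0.05313) and those without replicate 1, 2 or 3 (adjusted p of 0.1001, 0.1168 and 0.06594) and without the transition array of animal 5 (0.09133). The second did not pass without replicate 2 (0.08369) or 4 (0.09056) or with no replicate block (0.06625). The proliferative zone was above epiphyseal cartilage by 0.88 ± 0.21 (adjusted p = 0.005378, 4 of 4 animals), again across the 2 wordings, which did not pass without replicate 1 (0.07013), without replicate 2 (0.06022) or without epiphyseal cartilage of animals 1 and 2 (0.1702). Between the proliferative and resting zones the difference was 0.50 ± 0.20, with a 95% interval of 0.09 to 0.91 and an adjusted p of 0.09669, and the proliferative array was higher in 5 of 5 animals. In the order of the levels (hypertrophic, epiphyseal, transition, resting, proliferative) no 2 neighbours differed beyond the test's threshold.

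Ccn2, the chondrocyte growth factor of the family, was above the array median on all 24 arrays, as Ccn1 was, and was lower in the hypertrophic than in the resting and proliferative zones. Its signals were 16065.7, 20855, 7005.9 and 10073.9 in epiphyseal cartilage of animals 1, 2, 4 and 5. In animals 1 to 5 they were 22777.2, 21922, 13239.8, 14255.2 and 20544.9 in the resting zone, 16919.3, 22368.4, 11246.6, 15437.6 and 25089.5 in the proliferative zone, 15256.9, 21964.4, 11711.9, 16337.9 and 9397 in the transition zone and 9643, 15396.9, 6472.6, 12539.5 and 10811.2 in the hypertrophic zone. The zones overlapped, since animals 2 and 3 lay at opposite ends, but within each animal the hypertrophic array was below both its resting and its proliferative array.

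The Ccn2 means were 13500 ± 6180 (SD, n = 4) in epiphyseal cartilage, 18550 ± 4468 in resting cartilage, 18210 ± 5533 in the proliferative, 14930 ± 4810 in the transition and 10970 ± 3319 in the hypertrophic zone (n = 5 each). The gene passed the F test (adjusted p = 0.005039), though not with no replicate block (0.08971). In the hypertrophic zone Ccn2 fell by 0.73 ± 0.20 relative to the proliferative zone (adjusted p = 0.005684, 1.66-fold) and by 0.78 ± 0.20 relative to the resting zone (adjusted p = 0.003051, 1.71-fold), each in 5 of 5 animals and each past the threshold in all 19 alternative settings. Without the hypertrophic array of animal 4 these differences were -0.86 and -0.90 (adjusted p of 0.001849 and 0.0009981).

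The other Ccn2 differences did not pass. Closest to the threshold was the proliferative zone, 0.63 ± 0.22 above epiphyseal cartilage in 4 of 4 animals (95% interval 0.1802 to 1.075, adjusted p = 0.05256). The proliferative zone differed from the resting zone by -0.05 ± 0.20 (95% interval -0.46 to 0.37, adjusted p = 0.9204), and the hypertrophic zone from epiphyseal cartilage by -0.10 ± 0.22 (-0.55 to 0.34, adjusted p = 0.7674). The resting zone was 0.67 ± 0.22 above epiphyseal cartilage in 4 of 4 animals with an adjusted p of 0.1098, and 1.11 above it (adjusted p = 0.02169) when animals 1 and 2 gave no epiphyseal array. That setting left only the epiphyseal arrays of animals 4 and 5, whose Ccn2 signals of 7005.9 and 10073.9 were the lowest of that zone. The hypertrophic zone was 0.44 ± 0.20 below the transition zone in 4 of 5 animals (adjusted p = 0.1216). That last difference passed in 5 of 19 settings. With arrays scaled to one median it was -0.71 (adjusted p = 0.008478), where the median over all probe sets moved too, and with array weights -0.61 (adjusted p = 0.02467). Without replicate 5, without the transition array of animal 5 or without the hypertrophic array of animal 4 it was -0.60, -0.63 and -0.57 (adjusted p of 0.03987, 0.02489 and 0.04699). The differences from epiphyseal and transition cartilage cross the 2 wordings of the labels. In the order of the levels (hypertrophic, epiphyseal, transition, proliferative, resting) no 2 neighbours differed beyond the threshold.

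**Figure D1:**
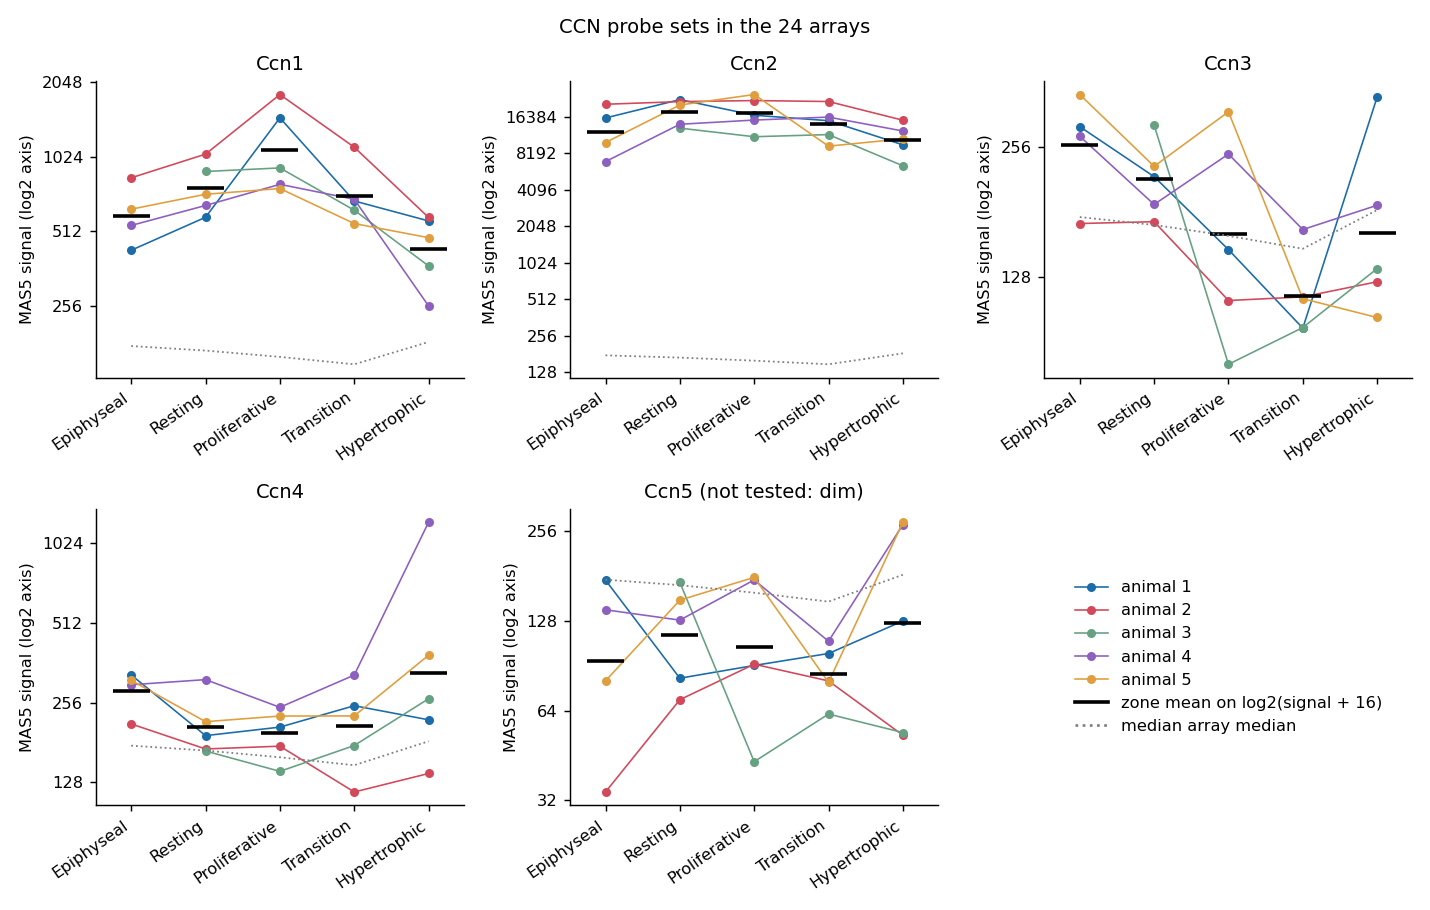
MAS5 signal of each CCN probe set (log2 axis, a different range in each panel) in the 5 zones, with 1 line per animal, black bars for the zone mean on the log2 scale and a dotted line for the median array median. The hypertrophic points of Ccn1 lie between 255.7 and 582.5, all below the proliferative points, and Ccn4 has a single hypertrophic point at 1223.7 far above the rest.

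Ccn3, which restrains growth in several cell types, was dim and lowest in the transition zone. It was above the array median on 11 of 24 arrays: 3 of 4 epiphyseal, 4 of 5 resting, 2 of 5 proliferative, 0 of 5 transition and 2 of 5 hypertrophic ones. Its signals were 285.9, 170.1, 271.5 and 339.6 in epiphyseal cartilage of animals 1, 2, 4 and 5. In animals 1 to 5 they were 218.7, 171.8, 288.1, 188.4 and 231.1 in the resting zone, 147.9, 112.6, 80, 246.8 and 309.6 in the proliferative zone, 97.1, 114.8, 97.4, 164.7 and 113.7 in the transition zone and 334.9, 124.5, 133.6, 187.6 and 102.8 in the hypertrophic zone. All transition arrays were below all resting and all epiphyseal arrays, while the proliferative and hypertrophic arrays spread over the whole range.

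The Ccn3 means were 266.8 ± 70.8 (SD, n = 4) in epiphyseal cartilage, 219.6 ± 44.95 in resting cartilage, 179.4 ± 95.96 in the proliferative, 117.5 ± 27.7 in the transition and 176.7 ± 93.79 in the hypertrophic zone (n = 5 each). The F test did not pass (adjusted p = 0.07662). Of the single pairs of zones, the transition zone was lower than epiphyseal cartilage by 1.01 ± 0.34 (adjusted p = 0.02634, 4 of 4 animals) and than the resting zone by 0.82 ± 0.31 (adjusted p = 0.04083, 5 of 5 animals). The 2 differences did not pass in 8 and 9 of 17 settings. Both were lost with quantile normalization (-0.75 and -0.56, adjusted p of 0.09627 and 0.1597) and with one common array median (-0.73 and -0.59, adjusted p of 0.08499 and 0.1265), where the first no longer reached a fold of 2. The first was also lost on leaving out replicate 1, 2, 4 or 5 (adjusted p of 0.09133, 0.05155, 0.05103 and 0.09276), the transition array of animal 5 (0.06374) or, for animals 1 and 2, their epiphyseal arrays (0.08464). The second was also lost with no filter (0.07129), with no replicate block (0.05534) and on leaving out replicate 1, 2, 3 or 5 (0.09346, 0.07576, 0.1416 and 0.06907) or the transition array of animal 5 (0.09002). The transition arrays share their label wording with the epiphyseal arrays and not with the resting arrays, so the second comparison crosses the wordings. The hypertrophic and proliferative zones differed by 0.01 ± 0.31 (95% interval -0.64 to 0.65, adjusted p = 0.9862). In the order of the mean log2 levels (transition, proliferative, hypertrophic, resting, epiphyseal) no 2 neighbours differed beyond the threshold.

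Ccn4, the Wnt-induced member known from bone-forming cells, had its highest single value in the hypertrophic zone of animal 4. Its signals were 325.2, 212.6, 298.7 and 310.3 in epiphyseal cartilage of animals 1, 2, 4 and 5. In animals 1 to 5 they were 192.1, 171.1, 168.1, 312.3 and 216.8 in the resting zone, 206.8, 175.3, 140.9, 245.6 and 227.7 in the proliferative zone, 249, 117.8, 176.3, 324.8 and 227.9 in the transition zone and 220.4, 138.3, 264.5, 1223.7 and 386 in the hypertrophic zone. Apart from the arrays at 1223.7 and 386, the hypertrophic arrays lay within the range of the other zones.

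The Ccn4 means were 286.7 ± 50.58 (SD, n = 4) in epiphyseal cartilage, 212.1 ± 59.33 in resting cartilage, 199.3 ± 41.81 in the proliferative, 219.2 ± 77.84 in the transition and 446.6 ± 443.5 in the hypertrophic zone (n = 5 each). The F test did not pass (adjusted p = 0.1365). Relative to the proliferative zone the hypertrophic zone was higher by 0.72 ± 0.28 (adjusted p = 0.04873, 4 of 5 animals), just past the threshold. The within-animal differences ran from -0.31 in animal 2 to 2.25 in animal 4. Without the hypertrophic array of animal 4 the difference was 0.36 (adjusted p = 0.2667), and it did not pass in 14 of 18 settings, quantile normalization (0.09271), one common array median (0.1052) and array weights (0.126) among them. Leaving out replicate 3, 4 or 5 gave adjusted p of 0.1266, 0.3576 and 0.1112, leaving out the transition array of animal 5 gave 0.05101, and leaving out the epiphyseal arrays of animals 1 and 2 gave 0.05043. Relative to the resting zone the difference was 0.64 ± 0.28 (adjusted p = 0.07158), which passed without replicate 2 (0.87, adjusted p = 0.03349), and relative to the transition zone it was 0.63 ± 0.28 (adjusted p = 0.1123). In the order of the levels (proliferative, resting, transition, epiphyseal, hypertrophic) no 2 neighbours differed beyond the threshold.

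The same hypertrophic array of animal 4 carried more signal of bone and connective tissue markers than the other hypertrophic arrays. Its osteoblast markers summed to 93710, against 29230 to 48690 in the other hypertrophic arrays. Its perichondrium and fibroblast markers summed to 148200, against 34510 to 44680, and its osteoclast and macrophage markers to 73460, against 5202 to 10450. Col1a1, which counts in both the osteoblast and the fibroblast list, had a signal of 39363.7 there, against 3515.6 to 13606.3. Ibsp, another osteoblast marker, was not raised there, at 33550.9 against 20441.6 to 40876.7. Bglap, the osteocalcin gene of osteoblasts, had a signal of 9393.4 there, against 164.7, 7, 13.5 and 146.6 in hypertrophic arrays of animals 1, 2, 3 and 5 and at most 50.3 on any array of the other zones. Its hypertrophic chondrocyte markers summed to 95590, the lowest of the 5 hypertrophic arrays. Across zones the osteoblast sums ranged from 3655 to 26940 in epiphyseal cartilage, 1550 to 7304 in the resting zone and 1369 to 4052 in the proliferative zone. They ranged from 4101 to 9289 in the transition zone and from 29230 to 93710 in the hypertrophic zone. Bglap was below the array median on every array but the hypertrophic array of animal 4. The part of these cells in the Ccn4 level was not tested beyond the fits without that array.

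**Figure D2:**
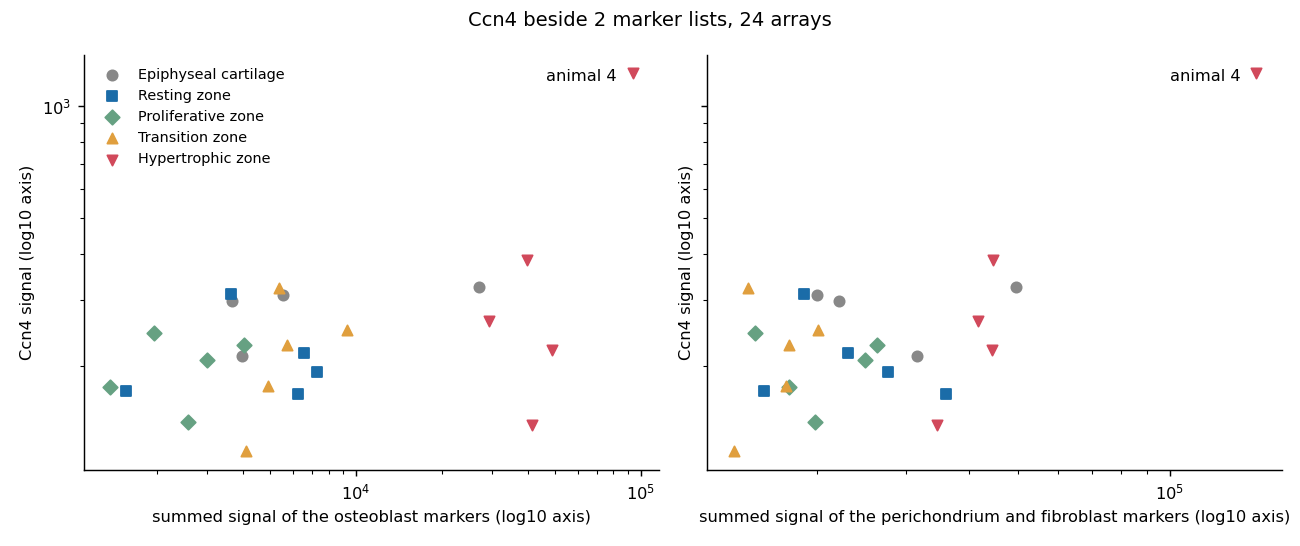
Ccn4 signal (log10 axis) against the summed signal of the osteoblast markers (left) and of the perichondrium and fibroblast markers (right, both log10 axes) on the 24 arrays, with 1 symbol per zone. The hypertrophic array of animal 4, at a Ccn4 signal of 1223.7, is at the upper right of both panels. Col1a1 counts in both sums.

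Ccn5, the member without the C-terminal module, was at or below the middle of the array almost everywhere. It was above the array median on 3 of 24 arrays, 1 resting and 2 hypertrophic. Its signals were 175.5, 34.1, 139.5 and 80.5 in epiphyseal cartilage of animals 1, 2, 4 and 5. In animals 1 to 5 they were 82.2, 69.6, 172.5, 128.8 and 150.3 in the resting zone, 90.7, 91.6, 43.1, 175.7 and 179.3 in the proliferative zone, 99.5, 80.5, 62.3, 109.4 and 79.6 in the transition zone and 127.9, 52.9, 54, 269.4 and 274.6 in the hypertrophic zone. All zones overlapped, and the 2 brightest arrays were the hypertrophic ones of animals 4 and 5. The means were 107.4 ± 62.62 (SD, n = 4) in epiphyseal cartilage, 120.7 ± 43.93 in resting cartilage, 116.1 ± 59.42 in the proliferative, 86.26 ± 18.46 in the transition and 155.8 ± 110.4 in the hypertrophic zone (n = 5 each). In a fit of all 31042 probe sets with no filter, Ccn5 did not pass the F test (adjusted p = 0.7779), which 34.5% of those probe sets passed, and its hypertrophic level differed from the proliferative level by 0.24 ± 0.39 (95% interval -0.57 to 1.04, adjusted p = 0.7471). At this brightness the interval is wide, and any difference inside it is compatible with the data.

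Taking the family by comparison, 2 of the 4 tested members (Ccn1 and Ccn2) passed the F test across zones, beside 55.6% of all tested probe sets, and 1 passed with no replicate block. Between the resting zone and epiphyseal cartilage, limma passed 0 of 4 members (1 at an unadjusted p below 0.05), beside 2.51% of all probe sets. Between the proliferative and resting zones it passed 0 of 4 (1 unadjusted), beside 13.9%. With the fold of 2 required as well, the shares of all probe sets were 1.51% and 6.09%. Ccn1 alone passed between the transition and proliferative zones (background 21.3%) and between the hypertrophic and transition zones (22.4%), lower in the later zone each time and never by a fold of 2, which 8.43% and 9.27% of all probe sets reached.

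Between the hypertrophic and proliferative zones 3 of 4 members passed, Ccn1 and Ccn2 lower and Ccn4 higher, beside 37.4% of all tested probe sets (16.9% higher and 20.5% lower). With the fold of 2 required as well, 1 member (Ccn1) was called, beside 18.7%. Between the hypertrophic and resting zones Ccn1 and Ccn2 passed, beside 41.4% of all probe sets, and 0 members reached a fold of 2 as well, beside 21.1%. Of the wider pairs, 1 of 4 members passed between the proliferative zone and epiphyseal cartilage (Ccn1, background 14.7%), between the transition zone and epiphyseal cartilage (Ccn3, 29.6%, and 13.8% with the fold of 2 that Ccn3 reached) and between the transition and resting zones (Ccn3, 38%). Between the hypertrophic zone and epiphyseal cartilage limma passed 0 of 4, and also 0 at an unadjusted p below 0.05, beside 29.9%. With 4 members tested, these counts are descriptions beside their backgrounds. Comparisons that share a zone share its arrays and are not independent. Scaling arrays to one median moved the median over all tested probe sets to -0.15, against -0.05 as deposited, for the hypertrophic against the proliferative zone, and to -0.24, against 0.02, for the hypertrophic against the transition zone. Under that scaling Ccn1 and Ccn2 were lower in the hypertrophic than in the proliferative zone at -1.40 and -0.84 (adjusted p of 3.805e-06 and 0.001468).

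**Figure D3:**
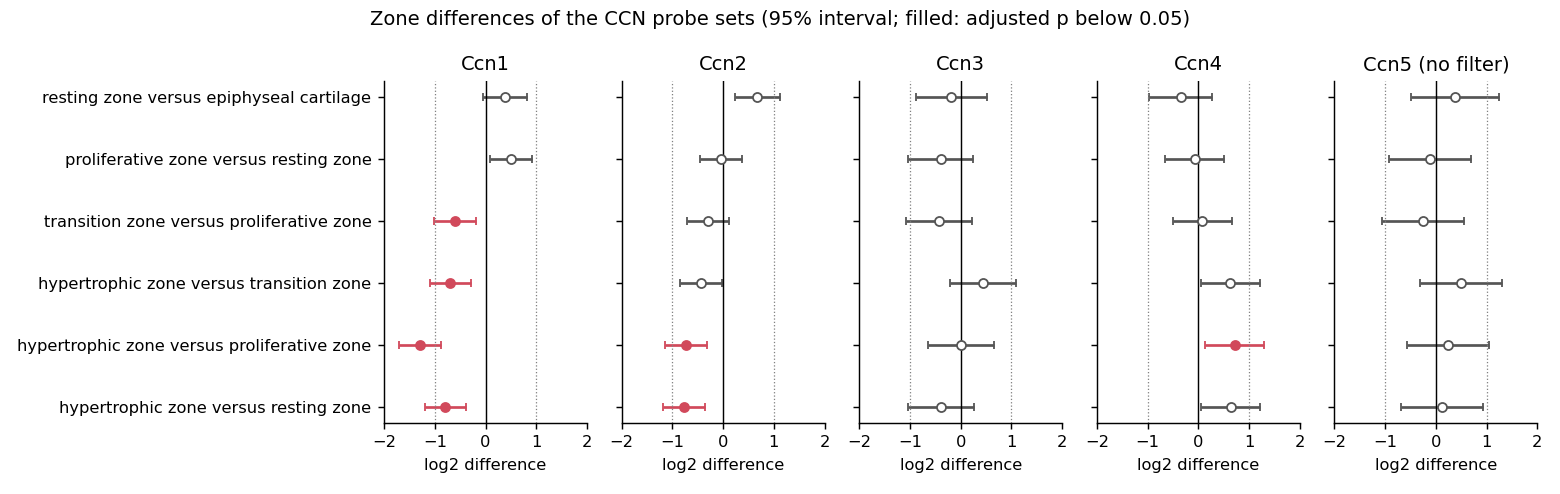
Log2 difference (later zone minus earlier zone) of each CCN probe set in 6 comparisons, with 95% intervals, filled where the adjusted p is below 0.05 and dotted lines at a fold of 2. Ccn1 and Ccn2 lie below 0 in the hypertrophic zone against the proliferative zone (-1.30 and -0.73), Ccn4 lies above 0 (0.72), and the Ccn3 and Ccn5 intervals all cross 0.

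The members differed in how much of their variation followed the animal. Of the log2 sum of squares, zone accounted for 55.53% in Ccn1, 35.53% in Ccn2, 35.86% in Ccn3, 19.68% in Ccn4 and 8.728% in Ccn5, beside a median of 39.43% over all tested probe sets. Animal accounted for 26.36%, 39.77%, 16.55%, 46.28% and 46.25% of it in the same order, beside a median of 17.59%. Ccn2, Ccn4 and Ccn5 thus varied more between animals than between zones. Animal 2 was the highest of the 5 for Ccn1 and Ccn2, at 0.55 and 0.51 above the zone means on average (log2), and the lowest for Ccn3, Ccn4 and Ccn5, at -0.34, -0.54 and -0.60. Animal 3 was lowest for Ccn2 (-0.52), and animal 4 was highest for Ccn4 (0.67) and Ccn5 (0.53).

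**Figure D4:**
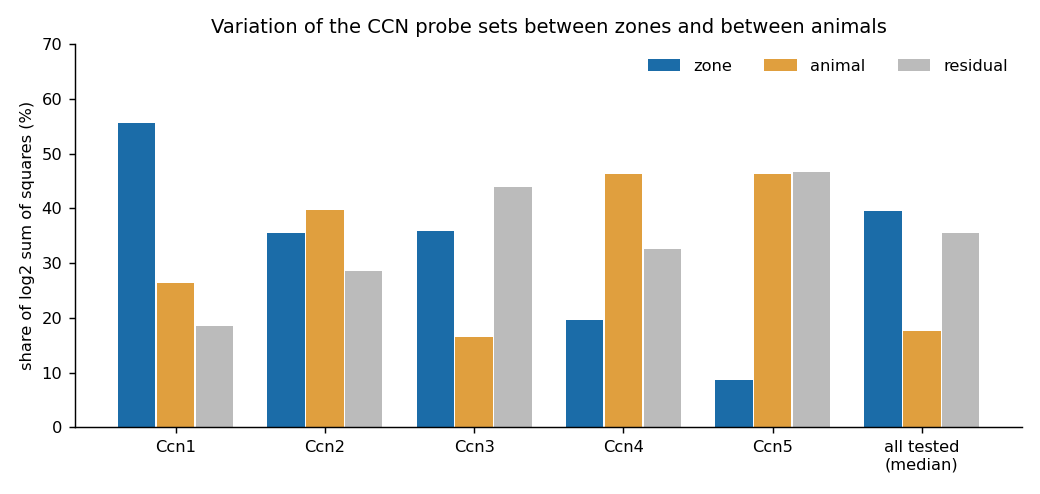
Share of the log2 sum of squares (percent) that followed zone, animal or neither for each CCN probe set, with the median over all tested probe sets on the right. Zone holds 55.53% for Ccn1 and 8.728% for Ccn5, and animal holds 46.28% for Ccn4. The shares of a gene need not add up to the whole, since epiphyseal cartilage has 4 arrays and the other zones 5.

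Genes with the most similar pattern were ranked among 10557 others by Pearson's r over the 24 arrays, after each animal's mean was removed. The arrays share animals and zones, so r is a description. For Ccn1 they were LOC100909675 (r = 0.918), Sorbs2 and Synpo, which encode proteins of actin-based structures (0.875 and 0.870), Ruvbl2, an ATPase gene of chromatin remodelling complexes (0.867), and Inka2 (0.863). For Ccn2 they were Gli1, a hedgehog target gene that encodes a transcription factor (0.778), Slc4a7, a bicarbonate transporter gene (0.758), Rad50, a DNA repair gene (0.758), Ddr2, a collagen receptor gene (0.746), and Alcam, a cell adhesion gene (0.742).

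For Ccn3 the closest genes were Vgll4, which encodes a TEAD cofactor (0.826), Wasl, a regulator of actin assembly (0.823), Zfp57 (0.819), Pfdn1, a chaperone subunit gene (0.812), and Isoc2a (0.807). For Ccn4 they were Gal, the galanin gene (0.884), Spp1, the osteopontin gene of mineralized matrix (0.866), Wif1, a secreted Wnt inhibitor gene (0.860), Col22a1, a collagen gene (0.847), and Gpx3, a secreted peroxidase gene (0.838). The high hypertrophic array of animal 4 enters each Ccn4 value. Among the members, r was 0.445 between Ccn1 and Ccn2 and -0.620 between Ccn1 and Ccn4.

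Genes around the family were read from lists of receptors, bound proteins and inducing pathways, 1 probe set per gene, in the hypertrophic against the proliferative zone. Over all 10558 genes, 19.3% rose and 22.4% fell in this comparison, with a median difference of -0.04. Of 12 tested receptors and co-receptors, 6 rose and 2 fell, with a median of 0.31. Itga6, the alpha chain of a laminin-binding integrin that also binds CCN proteins, rose by 2.47 ± 0.16 (adjusted p = 2.399e-11), with a mean signal of 20110 ± 5945 in the hypertrophic zone and 3546 ± 721.1 in the proliferative zone (SD, n = 5 each). Itgb3, an integrin chain that osteoclasts and platelets also carry, rose by 4.22 ± 0.59 (adjusted p = 3.554e-06). Igf2r and Lrp1, endocytic receptors that bind Ccn2, fell by 0.59 ± 0.13 (adjusted p = 0.0006695) and 0.57 ± 0.15 (adjusted p = 0.004124). Without the hypertrophic array of animal 4, 5 receptors rose and 2 fell.

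Of 10 tested proteins that CCN proteins bind, 5 rose and 1 fell, with a median of 0.76. Bmp2, a bone morphogenetic protein, rose by 2.74 ± 0.19 (adjusted p = 3.402e-11), Fn1, the fibronectin gene, by 1.73 ± 0.13 (adjusted p = 1.683e-10) and Dcn, the decorin gene, by 1.73 ± 0.31 (adjusted p = 8.317e-05). The Dcn mean signal was 1355 ± 1264 in the hypertrophic zone and 313.5 ± 76.81 in the proliferative zone (SD, n = 5 each). Vegfa, a growth factor gene whose product binds Ccn2, differed by 0.47 ± 0.31 (adjusted p = 0.2578). When arrays were scaled to one median 3 rose and 1 fell. Without the hypertrophic array of animal 4, 9 were tested, of which 4 rose and 1 fell.

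Transcripts of genes in the pathways known to induce Ccn1 and Ccn2 were read next, which says nothing of the pathways' activity. Of 16 tested Hippo and SRF regulators, 3 rose and 2 fell (median -0.03), beside the 19.3% and 22.4% of all genes. Lats1, the kinase that restrains YAP, fell by 1.10 ± 0.14 (adjusted p = 1.051e-06), and Nf2, an upstream activator of that kinase, rose by 0.44 ± 0.17 (adjusted p = 0.03935). Vgll4 and Tead2 differed by -0.33 ± 0.22 and 0.13 ± 0.29 (adjusted p of 0.2504 and 0.7538).

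Of 17 tested YAP and TAZ targets other than Ccn1 and Ccn2, 6 rose and 3 fell (median 0.15). Ccdc80 rose by 2.19 ± 0.16 (adjusted p = 1.421e-10), Gadd45b by 2.96 ± 0.19 (adjusted p = 8.127e-12), Nt5e, a nucleotidase gene, by 0.87 ± 0.20 (adjusted p = 0.0009798) and Myof, a membrane repair gene, by 3.16 ± 0.39 (adjusted p = 6.829e-07). The 3 that fell, named here after their values were seen, were Amotl2, Ptpn14 and Asap1, by 0.90 ± 0.16, 0.47 ± 0.15 and 0.81 ± 0.25 (adjusted p of 8.46e-05, 0.01809 and 0.01217). Without the hypertrophic array of animal 4, 5 rose and 3 fell.

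Of 12 tested immediate-early genes, the class to which Ccn1 and Ccn2 belong, 8 rose and 1 fell (median 1.65). Fos rose by 1.66 ± 0.35 (adjusted p = 0.0005141), Dusp1, a phosphatase gene, by 2.29 ± 0.28 (adjusted p = 5.288e-07), Egr1 by 1.93 ± 0.38 (adjusted p = 0.0002288) and Junb by 2.15 ± 0.39 (adjusted p = 0.0001012). Myc, the member that fell and named here after its values were seen, was lower by 1.76 ± 0.33 (adjusted p = 0.0001276). Without the hypertrophic array of animal 4, 7 rose and 1 fell. These genes also respond to handling of tissue, and the part of bone and marrow cells in their levels was not tested.

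Of 9 tested genes of the TGF-beta pathway and its response, 4 rose and 1 fell (median 0.34). Tgfbi, a secreted TGF-beta response gene, fell by 2.71 ± 0.19 (adjusted p = 5.146e-11), while Ltbp1, which binds latent TGF-beta, rose by 1.32 ± 0.30 (adjusted p = 0.001046) and Smad3 by 1.08 ± 0.22 (adjusted p = 0.0004715). Smad4 differed by 0.31 ± 0.13 (adjusted p = 0.07262). Of 5 tested Wnt response genes 0 rose and 1 fell (median -0.14): Nkd1, a feedback inhibitor, fell by 1.20 ± 0.30 (adjusted p = 0.002974). Tcf7, Lef1 and Axin2 differed by -0.22 ± 0.32, -0.14 ± 0.30 and 0.11 ± 0.32 (adjusted p of 0.6245, 0.7549 and 0.812).

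**Figure D5:**
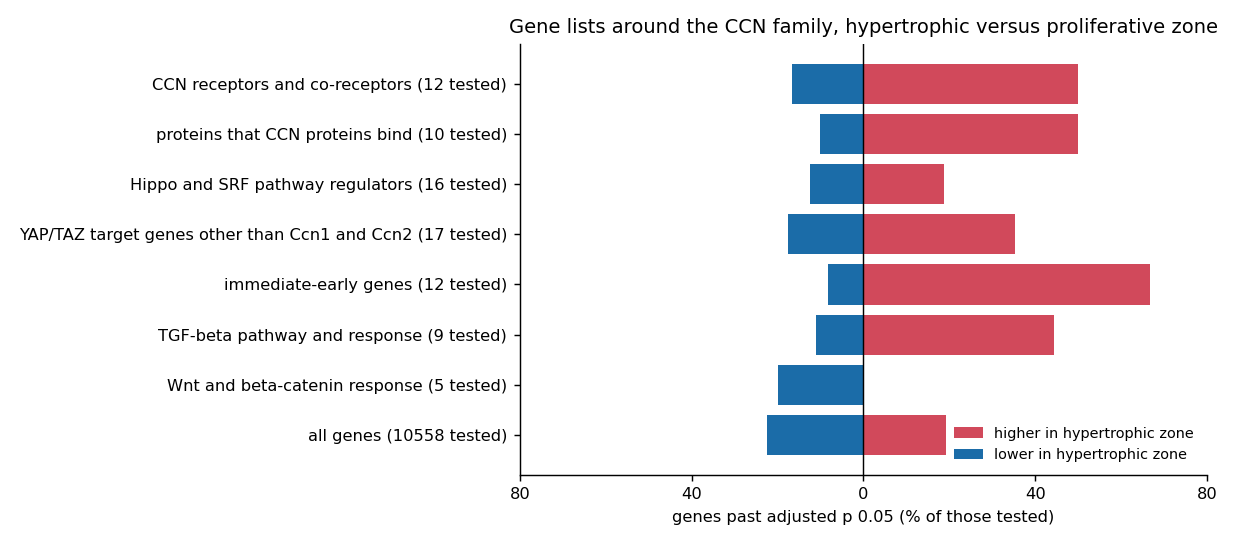
Share of tested genes of each list (percent) that were higher (right) or lower (left) in the hypertrophic zone than in the proliferative zone at an adjusted p below 0.05, beside all 10558 genes. Of the immediate-early genes 8 of 12 were higher and 1 was lower, against 19.3% and 22.4% of all genes.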

How the data were processed

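Total RNA of hand-dissected cartilage zones was amplified, labelled with biotin and hybridised to Affymetrix arrays, per the labels' protocols. Per the submitters' processing notes the deposited intensity values come from MAS5, with 1 linear signal for each probe set. The MAS5 version used was not given in the sources here. Trimmed of 2% of probe sets at each end, array means were 500.1 to 500.2. No detection calls were used here.

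From these values log2(signal + 16) was computed with no further normalization. The files held 31099 probe sets. Without the 57 controls, 19213 (61.8%) exceeded their array's median on at least 4 of 24 arrays and were tested. Gene names are those of the platform annotation after an update, through gene identifiers, to RefSeq's table for GRCr8. A single symbol was given for 13956 tested probe sets, several for 323 and none for 4934. For each of 10558 genes the tested probe set with the highest mean log2 signal was used.

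The model was fitted with limma 3.58.1 under R 4.3.3 (lmFit, eBayes with trend) on all 24 arrays, with the animal as a fixed block and 15 residual degrees of freedom. Benjamini-Hochberg adjustment of p-values ran over all tested probe sets in each of 10 pairs of zones and in the F test. The labels' descriptions name a numbered animal for each array. Deviations from the zone means correlated at a median r of 0.176 in 46 same-animal pairs of arrays (-0.142 to 0.36) and of -0.046 in 184 other pairs, and 21 of 24 arrays agreed best with their own animal. The exceptions were the hypertrophic array of animal 4 and the transition arrays of animals 4 and 5. Of these, the transition array of animal 4 was left out only with the rest of replicate 4. Arrays of a zone shared at most 50 identical values, so none was a duplicate. The fit was tested on simulated data. Plots were made in Python 3.11.15 using matplotlib 3.10.9.

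The members, gene lists, marker lists and tests were chosen with earlier results of these data known. The text names every member, the 5 genes most like each tested member in pattern, and up to 4 genes of each list with the smallest adjusted p of the F test, with Myc and the YAP and TAZ targets that fell added after their values were seen. Alternatives were quantile normalization, one common median, a pseudocount of 1 or 64, array weights, no filter, a stricter filter, no trend, no replicate block, a random block, a fit of the compared zones alone, and leaving out each animal or the doubted arrays. List counts under other settings were added after the data were seen.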

Additional observations from a re-analysis of the deposited data

Results flagged for a closer look

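Each member's signals were checked for an array far from the others in each zone, in 25 groups of 4 or 5 arrays, where chance flags about 1 in 20 groups. On the signal scale 3 arrays stood apart, and on the log2 scale none did. Ccn4 had a signal of 1224 in the hypertrophic zone of animal 4, with the next highest at 386. Ccn1 had a signal of 1120 in the transition zone of animal 2, with the next highest at 689.7. Ccn3 had a signal of 164.7 in the transition zone of animal 4, with the next highest at 114.8. The causes were not tested.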

How the results depend on the processing

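Each member's differences were recomputed under up to 19 alternatives, and cause was not tested where a call changed. The falls of Ccn1 and Ccn2 in the hypertrophic zone passed in all 19, at -1.46 to -1.17 and -0.86 to -0.61 against the proliferative zone and at -0.98 to -0.66 and -0.93 to -0.66 against the resting zone. The count of members past the F test was 2 without any single replicate, and 1 with no replicate block, where Ccn2 missed (adjusted p = 0.08971). No replicate block also ended the steps of Ccn1 between the transition and proliferative zones (0.1226) and between the hypertrophic and transition zones (0.06625), the difference of Ccn4 (0.1383) and that of Ccn3 between the transition and resting zones (0.05534). The number of called members without each replicate in turn stayed at 1 to 1 between the hypertrophic and proliferative zones and 0 to 0 in the other 5 comparisons. It became 1 between the resting zone and epiphyseal cartilage without the epiphyseal arrays of animals 1 and 2 (Ccn2, 1.11).

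Signs turned only in differences that passed under no setting. Ccn3 between the hypertrophic and proliferative zones was -0.0009986 with a pseudocount of 64, -0.1065 with quantile normalization, -0.08129 with arrays scaled to one median, -0.0001302 with array weights and -0.2638, -0.02114 and -0.1492 without replicates 1, 2 and 3 (range over all replicates left out -0.2638 to 0.3744). Between the proliferative and resting zones Ccn4 was 0.02458 with quantile normalization and 0.0222 with one median, and Ccn2 was 0.05641 with one median and 0.04923 and 0.000857 without replicates 1 and 3 (range -0.1299 to 0.04923). Ccn1 passed between these zones with one median (0.6017, adjusted p = 0.04437) and with array weights (0.5406, 0.019). With a filter at the 75th percentile Ccn3 and Ccn4 were not tested. Dim signal limits Ccn3, Ccn4 and Ccn5. Ccn4 exceeded the array median on 21 of 24 arrays. Outside the hypertrophic array of animal 4 it lay between 0.756 and 1.88 times that median.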

Other observations

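Ccn6, the family member outside the set described here, was looked at after its values were seen. Its mean signals were 319.4 in epiphyseal cartilage, 284.3 in the resting zone, 476.7 in the proliferative zone, 523.2 in transition cartilage and 220.6 in hypertrophic cartilage. It fell by 1.18 ± 0.26 on the log2 scale in the hypertrophic zone relative to the proliferative zone (adjusted p = 0.0008398) and by 1.32 ± 0.26 relative to the transition zone (adjusted p = 0.0006454), each in 5 of 5 animals in limma's fit. Ccn1, Ccn2 and Ccn6 were thus the family members that passed as lower in the hypertrophic than in the proliferative zone. Unlike those of Ccn1 and Ccn2, the Ccn6 differences were not followed through the alternative settings. The Ccn6 fall between these zones ran from -0.59 in animal 3 to -2.44 in animal 1. The hypertrophic signal of animal 1 was 70.5, at 0.379 times the array median. Ccn6 was higher in the transition than in the resting zone by 0.88 ± 0.26 (adjusted p = 0.009379, 5 of 5 animals), across the 2 wordings of the labels, where Ccn1 differed by -0.10 ± 0.20 (adjusted p = 0.7278).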
